A study of Mus musculus with 4 samples.

Results

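The cyclin-dependent kinase (CDK) inhibitors form a group of 7 mouse genes, and all 7 were taken by symbol from the 32285 genes of the count matrices. They are Cdkn1a, which encodes p21, Cdkn1b (p27), Cdkn1c (p57), Cdkn2a (p16 and, from another reading frame, p19Arf), Cdkn2b (p15), Cdkn2c (p18) and Cdkn2d (p19). They were counted in single-cell RNA libraries of whole mouse ovary, 1 library for each of 4 groups of 5 mice, with 1 ovary of every mouse pooled before the cells were separated with papain and collagenase. The control mice received the vehicles, PBS and saline. The doxorubicin mice received 2 weekly doses of doxorubicin at 3 mg/kg, a drug that poisons topoisomerase and breaks DNA. The doxorubicin and AMH mice also received recombinant human AMH, the anti-Müllerian hormone made by granulosa cells, at 0.75 mg/kg, and the AMH mice received AMH alone. The mice were treated at the prepubertal age of postnatal day 25, and their ovaries were taken 4 hours after doxorubicin was given for the last time. The series title names the response to DNA damage and cell fate as its subject. With 1 pooled library per group there is no replicate check, and every comparison is between 4 libraries, not between treatments shown to differ. All intervals are 95% intervals that cover counting error only.

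CDK inhibitors bind the kinases that drive the cell cycle, or the complexes of these kinases with cyclins, and hold cells out of division. The Cip/Kip members (Cdkn1a, Cdkn1b, Cdkn1c) act on cyclin-CDK complexes of several phases, while the INK4 members (Cdkn2a to Cdkn2d) bind CDK4 and CDK6 and keep RB in its growth-restraining form. Cdkn1a is a direct target gene of the p53 protein and a standard readout of p53 activity after DNA damage, Cdkn1b helps cells, granulosa cells among them, to leave the cell cycle, Cdkn1c is an imprinted gene of growth control, and Cdkn2a is best known for senescence.

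Cdkn1a (ENSMUSG00000023067) lies on the plus strand of chromosome 17, from 29090976 to 29100727 of GRCm38. The 250 bases ahead of its upstream start in RefSeq, on the plus strand at chr17:29090729-29090978 of GRCm38.p6, are shown because this gene separated the libraries and its promoter carries the well-known p53 site, which is in capitals.
Cdkn1a promoter: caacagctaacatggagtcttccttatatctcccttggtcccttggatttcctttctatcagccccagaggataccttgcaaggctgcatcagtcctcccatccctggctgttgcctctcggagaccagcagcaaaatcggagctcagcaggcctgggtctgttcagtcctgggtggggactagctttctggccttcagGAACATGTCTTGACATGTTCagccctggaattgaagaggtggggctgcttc
The capitals are a pair of adjacent p53 half-sites with 1 mismatch to the consensus, and their first base is at -51 relative to the start. A p53 site with at most 1 mismatch was found in 18 of 32851 mouse promoter windows of 300 bases (0.0548%), and a single half-site in 2745 (8.36%), each read on both strands (the consensus reads the same on both). RefSeq windows matched 6 of the 7 members. Cdkn2d had 1 half-site, while the second Cdkn1a window and the windows of Cdkn1b, Cdkn2a, Cdkn2b and Cdkn2c had neither motif. A match describes the letters of the window and not binding in these cells.

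The other members lie on chromosome 6 (Cdkn1b, ENSMUSG00000003031, 134920401 to 134925513, plus strand), chromosome 7 (Cdkn1c, ENSMUSG00000037664, 143458339 to 143461050, minus strand), chromosome 9 (Cdkn2d, ENSMUSG00000096472, 21288410 to 21291407, minus strand) and chromosome 4. On chromosome 4, Cdkn2a (ENSMUSG00000044303, 89274471 to 89294653) and Cdkn2b (ENSMUSG00000073802, 89306299 to 89311039) are neighbours on the minus strand, and Cdkn2c (ENSMUSG00000028551, 109660876 to 109667189, minus strand) is apart from them. The libraries read the 3′ ends of transcripts, so p16 and p19Arf, which share their last exons, were counted together as Cdkn2a. On the opposite strand Cdkn1c overlaps Gm44732 and Cdkn1a another annotated gene, and whether the counting used the strand is not given in the sources used here, so reads of such pairs may be mixed.

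The deposited matrices held 7141 to 9478 cells and 138647495 to 178279122 UMIs (unique molecular identifiers, each a counted RNA molecule) per library, and 5998 to 7911 cells per library were kept. They fell into 31 clusters, each named here by its 2 leading genes, of which 27 could be assigned to 12 cell classes by marker genes. The label of ovary was borne out by granulosa-like, theca-like, stroma-like and surface epithelial-like cells, and all 12 granulosa, 8 stroma, 8 theca and 8 macrophage markers had UMIs in their class in every library. No oocyte-like or luteal-like cluster was found. Libraries were not alike in make-up: the theca-like Cyp17a1/Cyp11a1 cluster held 696 control and 492 doxorubicin cells but 66 doxorubicin and AMH and 76 AMH cells, while the theca-like Prss35/Pde10a cluster held 33, 17, 538 and 703. Pairs of libraries shared 11 to 24 cell barcodes. Levels are given as CPM, the UMIs of the gene in each 1000000 UMIs of the class or cluster, summed over its cells.

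Over all kept cells, Cdkn1a stood at 30.2 CPM in the control, 139 CPM in the doxorubicin, 47.0 CPM in the doxorubicin and AMH and 30.6 CPM in the AMH library. The other 6 inhibitors had levels much closer together. Cdkn1b lay between 63.3 and 69.4 CPM, Cdkn1c between 25.6 and 31.7, Cdkn2c between 22.1 and 27.1, Cdkn2d between 13.1 and 16.4, Cdkn2b between 1.22 and 2.19 and Cdkn2a between 1.14 and 1.35. Among the inhibitors, the doxorubicin library therefore stood apart in Cdkn1a and in no other member by a like margin.

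In the control library Cdkn1a was highest in B lymphocyte-like, macrophage-like and surface epithelial-like cells. B lymphocyte-like cells had 351 CPM, from 49 cells only, macrophage-like cells 282 CPM (256 to 309), surface epithelial-like cells 153 CPM (140 to 167) and oviduct epithelial-like cells 98.2 CPM (88.4 to 109). Blood endothelial-like, lymphatic endothelial-like, mural smooth muscle-like, T or NK lymphocyte-like and stroma-like cells followed at 66.6, 66.1, 58.1, 51.4 and 38.9 CPM, and each interval in that row overlapped the next. Granulosa-like cells, the dividing somatic cells of the follicle, had 10.5 CPM (9.57 to 11.5) and theca-like cells, its steroid-making outer layer, 8.58 CPM (7.42 to 9.86), and these did not differ beyond their intervals. In the doxorubicin library, among classes with at least 50 cells in it, the order was surface epithelial-like (1262 CPM), macrophage-like (865 CPM), mural smooth muscle-like (446 CPM) and stroma-like cells (278 CPM), then blood endothelial-like (101 CPM), theca-like (57.2 CPM), erythroid-like (42.0 CPM) and granulosa-like cells (39.6 CPM), and only the last 3 had overlapping neighbours. In erythroid-like cells 1 cell held 14 of the 17 Cdkn1a UMIs of that class in the doxorubicin library, so their place in the order rests on that cell.

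In stroma-like cells, the connective tissue cells between follicles, Cdkn1a was 38.9, 278, 80.8 and 52.7 CPM in the control, doxorubicin, doxorubicin and AMH, and AMH libraries. The doxorubicin library was 7.14-fold above the control (log2 ratio 2.69, 2.61 to 2.76). Folds are plain ratios of CPM, while log2 ratios were taken after adding 5 CPM to each level and so understate the differences of low genes. With AMH in both libraries, doxorubicin and AMH against AMH gave 1.53-fold (0.57, 0.48 to 0.67), and doxorubicin and AMH against doxorubicin gave -1.72 (-1.79 to -1.65). The 4 intervals of the levels did not overlap. Of 6665 genes that averaged 20 CPM or more in these cells, 7 (0.105%) were at least 2-fold higher in the doxorubicin than in the control library, and 1 of the 4 inhibitors among them, Cdkn1a, was one of the 7, with the p53 targets Eda2r, Ccng1 and Mdm2 also there. Genes low in the control can enter that set through the doxorubicin library alone. None of the 6665 genes (0%) was 2-fold higher in the doxorubicin and AMH library than in the AMH library, and 0 of the 4 inhibitors.

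In macrophage-like cells Cdkn1a was 282, 865, 466 and 185 CPM in the same order of libraries, from 189, 88, 91 and 178 cells, and 431 of the 443 control UMIs lay in the Cxcl2/Spp1 cluster. The doxorubicin library was 3.07-fold above the control (log2 ratio 1.60, 1.43 to 1.78), and the doxorubicin and AMH library was 2.52-fold above AMH (1.31, 1.10 to 1.52). Here the pair with AMH thus differed by nearly as much as the pair without, and the doxorubicin and AMH library was -0.89 (-1.06 to -0.71) against doxorubicin. The 2-fold margin for doxorubicin over control was passed by 76 of 6303 genes (1.21%), including 1 of the 2 inhibitors tested, and the margin for doxorubicin and AMH over AMH by 42 (0.666%), again including 1 of 2. That inhibitor was Cdkn1a, and the other, Cdkn1b, was not past 2-fold.

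In granulosa-like cells Cdkn1a was 10.5, 39.6, 22.9 and 13.5 CPM. The doxorubicin library was 3.77-fold above the control (log2 ratio 1.53, 1.42 to 1.63), the doxorubicin and AMH library 1.70-fold above AMH (0.59, 0.49 to 0.70), and the doxorubicin and AMH library lay below doxorubicin by -0.68 (-0.77 to -0.59). The 4 levels had separate intervals. Only 3 of 6576 genes (0.0456%) were at least 2-fold higher in the doxorubicin library than in the control, namely Ooep (2.10), Cdkn1a and Acta2 (1.22), and none (0%) in the doxorubicin and AMH library over AMH. Cdkn1a reached the limit of 20 CPM there only through its level in the doxorubicin library, so its place among the 3 is a description and supports nothing. Ooep is an oocyte gene and Acta2 a smooth muscle gene, and the part of RNA from other cells in the Cdkn1a level was not tested. For each 100 UMIs of the 8 stroma markers, granulosa-like cells held 14.9, 41.2, 40.2 and 21.5 Cdkn1a UMIs, and all kept cells 1.28, 5.80, 2.29 and 1.57. Erythroid-like cells of the doxorubicin library, whose UMIs were mostly haemoglobin, held 14.7, most of them from 1 cell. All kept cells include the stroma-like cells, which had 8070 CPM of these markers in the control against 70.4 CPM in granulosa-like cells. The values are thus not alike and are given as a description only.

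**Figure D1:**
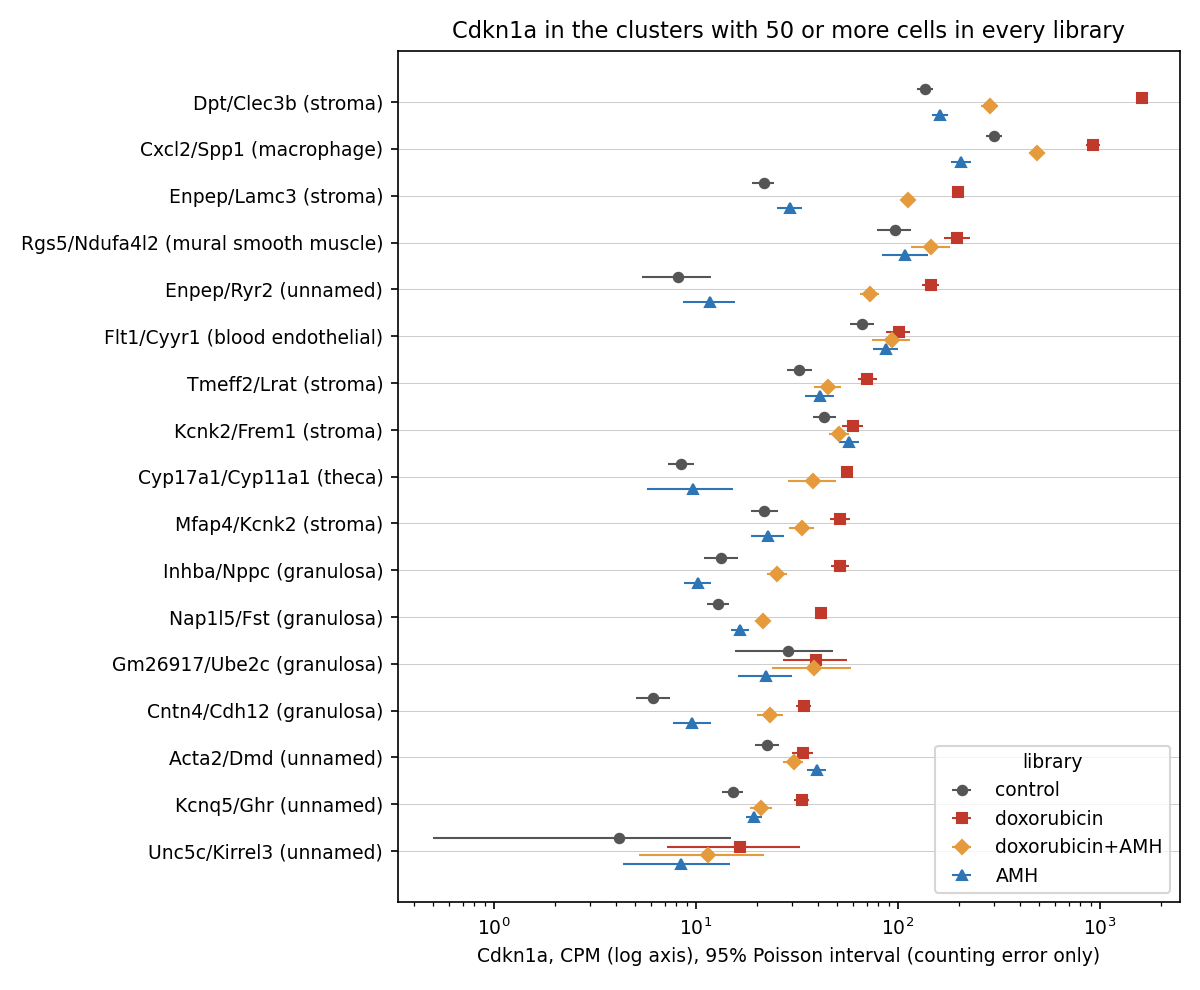
Cdkn1a level in CPM (log axis) in each cluster with at least 50 cells in every library, 1 point per library with its 95% Poisson interval. The doxorubicin point lies furthest right in 16 of 17 clusters, from 16.6 CPM in the Unc5c/Kirrel3 cluster, where it rests on 8 UMIs, to 1613 CPM in the Dpt/Clec3b cluster, and the Acta2/Dmd cluster is the exception.

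The class levels hid a wide spread among clusters. Over the 17 clusters with at least 50 cells in every library, the log2 ratio of Cdkn1a, doxorubicin to control, was above 0 in 17 and its interval in 15, and it ran from 0.41 to 3.52 with a median of 1.24. Doxorubicin and AMH to doxorubicin was below 0 in 17 clusters, with 12 intervals below 0, a range of -2.48 to -0.03 and a median of -0.56. The 2 ratios share the doxorubicin library, so they are not independent. Doxorubicin and AMH to AMH, which shares no library with doxorubicin to control, was above 0 in 15 of the 17, with 9 intervals above and 1 below, from -0.33 to 2.21 with a median of 0.47. The full order was doxorubicin above doxorubicin and AMH and both above the control and AMH. Taken on levels alone, whatever their intervals, it held in 15 clusters and not in Kcnk2/Frem1 and Acta2/Dmd. It held in fewer, 13 or 14, under each of 5 settings chosen after the data were seen. With cells weighted equally, 1 of these settings, the doxorubicin library was highest in 14. The clusters come from the same libraries, so they are not repeats of each other.

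The Dpt/Clec3b cluster, fibroblasts rich in Col1a1 and Col14a1, had the highest Cdkn1a level in the doxorubicin library among the 17 clusters with at least 50 cells in every library. It was 136 CPM in the control, 1613 CPM in the doxorubicin, 285 CPM in the doxorubicin and AMH and 161 CPM in the AMH library. The log2 ratio of doxorubicin to control was 3.52 and of doxorubicin and AMH to AMH 0.81. Without this cluster the ratio over stroma-like cells was 1.93 for doxorubicin to control and -0.76 for doxorubicin and AMH to doxorubicin. Both were smaller in size than the stroma values given above, so 1 cluster supplied much of these. For doxorubicin and AMH to AMH the ratio was 0.81, higher than the stroma value given above. The cluster held 297, 203, 136 and 263 of the 3064, 2196, 2196 and 2232 stroma-like cells, so its part was unequal between libraries. Of 6336 genes, 131 (2.07%) passed 2-fold in doxorubicin over control in the Dpt/Clec3b cluster, and of the 3 inhibitors among them only Cdkn1a did. The cluster was singled out for its Cdkn1a level after the values were seen, so this count is a description and supports nothing.

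The Enpep/Lamc3 cluster, also stroma-like, and the Enpep/Ryr2 cluster, which could not be assigned to a class and carried Lhcgr and Hhip among its leading genes, were also far apart between libraries, with log2 ratios of doxorubicin to control of 2.93 and 3.51. Cdkn1a in Enpep/Lamc3 was 21.6, 198, 112 and 29.1 CPM, and in Enpep/Ryr2 8.19, 145, 72.3 and 11.8 CPM. In both, the doxorubicin and AMH library stayed well above AMH, with log2 ratios of 1.78 and 2.21, and closer to doxorubicin, at -0.79 and -0.96, than it did in Dpt/Clec3b at -2.48. The large stroma-like cluster Tmeff2/Lrat had only 32.5, 70.6, 45.0 and 41.0 CPM, and Kcnk2/Frem1 43.2, 59.8, 51.3 and 57.3 CPM. Among follicle cells the Cyp17a1/Cyp11a1 theca-like cluster had 8.51, 56.2, 37.9 and 9.59 CPM, and the Inhba/Nppc granulosa-like cluster, which carries mural antral genes, 13.3, 51.6, 25.3 and 10.2 CPM. In mural cells Rgs5/Ndufa4l2, which carries pericyte genes, had 96.4, 196, 146 and 109 CPM, while the smooth muscle cluster Des/Cnn1 had 43.3, 1219, 245 and 27.4 CPM, from only 19 cells in the doxorubicin library. Surface epithelial-like cells had 153, 1262, 297 and 82.3 CPM from 103, 91, 33 and 63 cells. They were not a like mix, with 65, 52, 33 and 30 cells from Nrg1/Gng13. The rest came from Slpi/C3, which had no cell in the doxorubicin and AMH library. In the doxorubicin library 10 cells held 53.2% of the Cdkn1a UMIs of this class.

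Blood endothelial-like cells showed the smallest difference among the 6 classes that had 50 cells or more in all libraries. Their Cdkn1a level was 66.6, 101, 93.1 and 86.9 CPM, with log2 ratios of 0.56 (0.30 to 0.82) for doxorubicin to control, 0.10 (-0.26 to 0.45) for doxorubicin and AMH to AMH and -0.11 (-0.46 to 0.24) for doxorubicin and AMH to doxorubicin. The last pair of intervals includes 0. Mural smooth muscle-like cells, beside them in the vessel wall, had 58.1, 446, 196 and 41.9 CPM, and the ratio of doxorubicin to control was 2.84 (2.62 to 3.05). That class ratio is not over like cells, since Des/Cnn1 and Rgs5/Ndufa4l2 made up 200 and 113 of the control cells but 19 and 80 of the doxorubicin cells, and the 19 Des/Cnn1 cells held 352 of the 527 doxorubicin UMIs. Within Rgs5/Ndufa4l2 the ratio was 0.99.

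**Figure D2:**
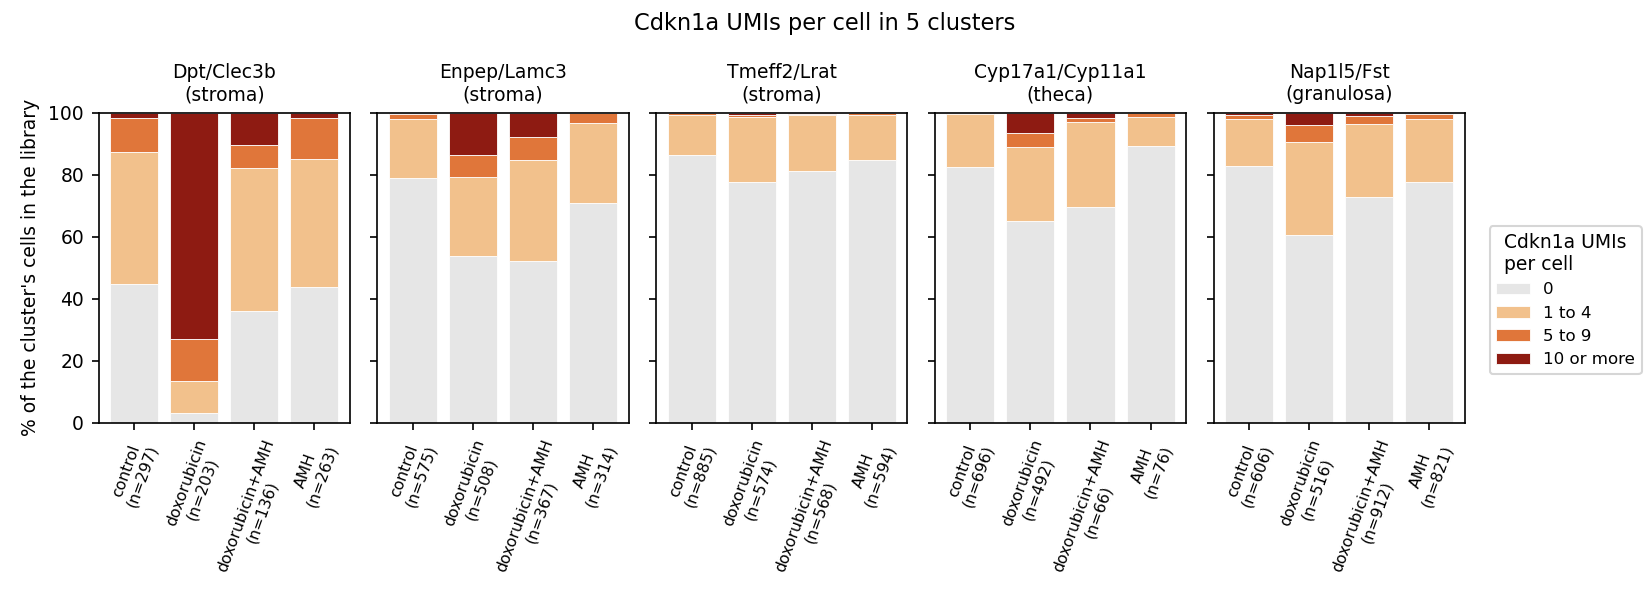
Share of cells (%) with 0, 1 to 4, 5 to 9 and 10 or more Cdkn1a UMIs in 5 clusters, 1 bar per library with its number of cells. In Dpt/Clec3b the class of 10 or more UMIs fills 72.9% of the doxorubicin bar and at most 10.3% of any other bar.

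Counted per cell, the high Cdkn1a level of the Dpt/Clec3b cluster was spread over most of its cells. Cells with 10 or more Cdkn1a UMIs made up 1.68% of 297 cells in the control, 72.9% of 203 in the doxorubicin, 10.3% of 136 in the doxorubicin and AMH and 1.52% of 263 in the AMH library, and the median cell held 1, 20, 1 and 1 UMIs. In Enpep/Lamc3, 13.6% of doxorubicin and 7.90% of doxorubicin and AMH cells reached 10 UMIs, against 0.174% and 0% in the other libraries, while 53.7% of its doxorubicin cells had none. The level of that cluster thus came from a minority of its cells. The single highest cell of the series held 408 Cdkn1a UMIs and was surface epithelial-like in the doxorubicin library, where 60.4% of that class had 10 or more.

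Because deeper cells show more genes, shares of cells with any Cdkn1a UMI were also taken after thinning each cell to 2000 UMIs. In stroma-like cells they were 7.15%, 18.3%, 9.21% and 7.63% (unthinned 20.7%, 36.5%, 28.1% and 24.1%, at median depths of 8797, 11473, 8892 and 7885.5 UMIs). In macrophage-like cells they were 32.9%, 62.3%, 57.4% and 26.4% (unthinned 49.2%, 70.5%, 63.7% and 42.7%), so the doxorubicin and AMH library was near the doxorubicin library in how many macrophage-like cells held a UMI. In granulosa-like cells they were 1.75%, 7.09%, 3.66% and 2.24% (unthinned 16.5%, 31.9%, 25.8% and 18.1%, at median depths of 24955, 22745.5, 23217 and 19557 UMIs). Erythroid-like cells, taken here as the background from free RNA, had 7.41% (2.06 to 17.9) in the doxorubicin library and 0 in the control, where a count of 0 allows up to 6.38%, and unthinned 6.78% and 3.33% at median depths of 6553 and 5503.5. The granulosa-like share of the doxorubicin library lay within the erythroid-like interval, which rests on 4 cells with a UMI. Median depths before thinning were unlike, at 22745.5 and 6553 UMIs, so free RNA need not weigh alike in both classes. The thinned share therefore cannot decide whether granulosa-like cells differ from the background, and the unthinned shares, 31.9% and 6.78%, are at the same unlike depths. The macrophage-like share lay above the erythroid-like interval, and the interval of the stroma-like share overlapped it.

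**Figure D3:**
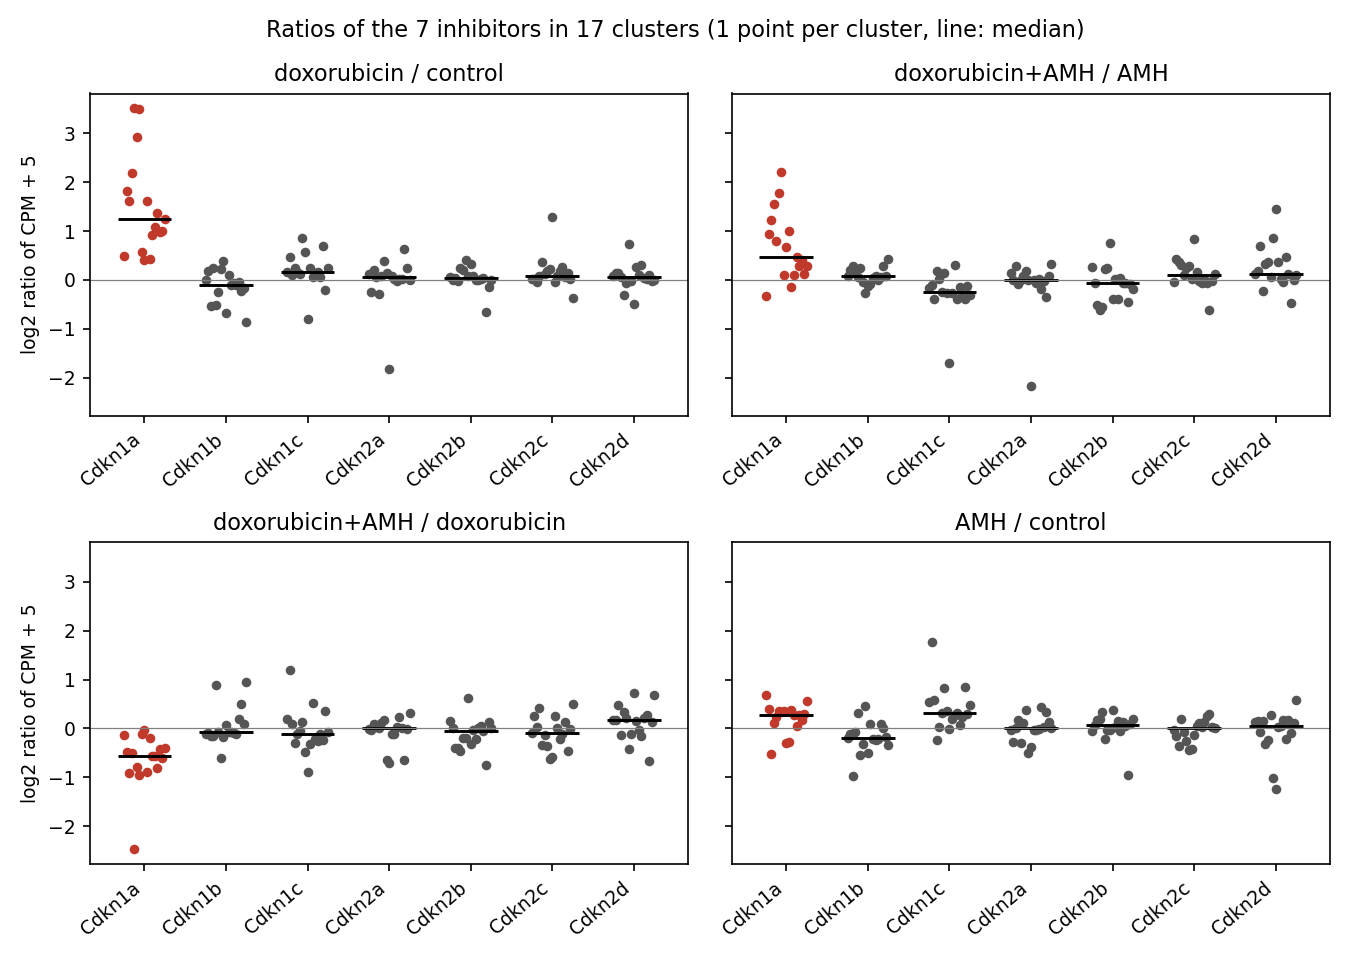
Log2 ratios of the 7 inhibitors between pairs of libraries, 1 point for each of the 17 clusters and a line at the median. Cdkn1a points for doxorubicin to control all lie above 0 (median 1.24), whereas the medians of the other 6 members lie between -0.10 and 0.17.

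Cdkn1b, the p27 gene, had whole-library levels close together and was seen in every class. Its level was 52.0, 56.9, 57.1 and 56.1 CPM in granulosa-like cells, 86.7, 74.3, 77.4 and 72.9 CPM in stroma-like cells and 64.1, 76.6, 72.9 and 69.6 CPM in theca-like cells. T or NK lymphocyte-like cells headed the classes in the control library, at 121 CPM (92.3 to 155), overlapping lymphatic endothelial-like cells at 89.4 CPM, and erythroid-like cells had 11.6 to 21.7 CPM. Doxorubicin to control was -0.21 (-0.28 to -0.13) in stroma-like and 0.12 (0.04 to 0.19) in granulosa-like cells, small ratios of opposite sign, and over the 17 clusters it was above 0 in 5 and below in 12, from -0.85 to 0.38 with a median of -0.10. AMH to control was also below 0 in 12 of them, with a median of -0.19. In Dpt/Clec3b, of the 17 the highest in Cdkn1a in the doxorubicin library, Cdkn1b was 45.7, 30.4, 60.6 and 58.2 CPM, and doxorubicin to control was -0.52 (-0.84 to -0.19). CPM is a share of each cluster's RNA, and the cause of that gap was not tested. After thinning, 10.1% to 12.2% of granulosa-like cells and 14.6% to 16.5% of stroma-like cells held a Cdkn1b UMI, against 2.13% to 3.70% of erythroid-like cells.

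Cdkn1c, the p57 gene, had its highest class level in blood endothelial-like cells in the doxorubicin library and in stroma-like cells in the other 3, and the first classes overlapped in each. Stroma-like cells had 50.2, 51.2, 56.9 and 63.7 CPM and blood endothelial-like cells 40.9, 63.6, 43.9 and 54.2 CPM, with intervals that overlapped in every library. Mural smooth muscle-like cells had 27.4, 45.7, 50.4 and 38.4 CPM, and surface epithelial-like cells reached 63.4 CPM in the AMH library. The Dpt/Clec3b cluster had 136, 153, 141 and 139 CPM and granulosa-like cells 8.10, 11.2, 11.7 and 17.2 CPM. In Dpt/Clec3b, the cluster highest in this gene, the 4 intervals overlapped. In granulosa-like cells the AMH library was the highest, with AMH to control at 0.76 (0.65 to 0.88).

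Among the granulosa-like clusters 1 stood out. In Cntn4/Cdh12, whose leading genes include Gatm and Slc18a2 and which was singled out after its values were seen, Cdkn1c was 8.65 CPM (7.34 to 10.1) in the control, 14.0 CPM (12.2 to 15.9) in the doxorubicin, 38.3 CPM (34.1 to 42.9) in the doxorubicin and AMH and 41.8 CPM (37.7 to 46.2) in the AMH library. Both libraries with AMH lay above both without it, and their intervals overlapped each other. AMH to control was 1.78 (1.58 to 1.97) and doxorubicin and AMH to doxorubicin 1.19 (0.98 to 1.39), a pair of ratios that share no library. Of 6683 genes in this cluster, 66 (0.988%) were at least 2-fold higher in AMH than in control and 55 (0.823%) in doxorubicin and AMH than in doxorubicin. Cdkn1c was among them in each, but it reached 20 CPM only through the libraries in which it was high, so no count of inhibitors is read from this. Nap1l5/Fst, the largest granulosa-like cluster, had 4.76, 5.22, 4.41 and 6.41 CPM, and Inhba/Nppc 12.7, 16.0, 11.8 and 15.3 CPM, with no such step. The low-UMI Gm26917/Ube2c cluster had 46.9 CPM in the control, 24.7 CPM in the doxorubicin and 46.8 CPM in the AMH library and was lowest in doxorubicin and AMH, with wide intervals and in an order that did not follow AMH. The Cntn4/Cdh12 cluster held 428, 366, 227 and 284 cells, and the doxorubicin library held nearly all cells of another 2 granulosa-like clusters (178 of B230209E15Rik/Tub and 78 of Amh/Aard), so the cells compared may not match in full. Over the 17 clusters AMH to control was above 0 for Cdkn1c in 15, but so was doxorubicin to control, and doxorubicin and AMH to doxorubicin was above 0 in 6 and below in 11.

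**Figure D4:**
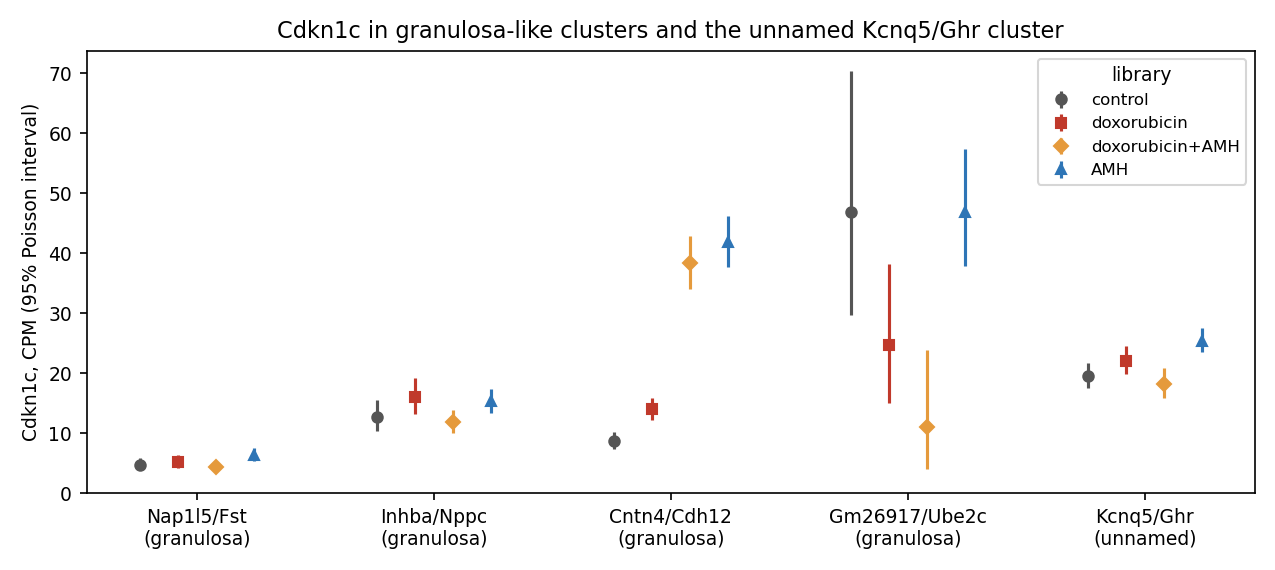
Cdkn1c level in CPM with its 95% Poisson interval in 4 granulosa-like clusters and the unnamed Kcnq5/Ghr cluster, 1 point per library. In Cntn4/Cdh12 the doxorubicin and AMH library (38.3 CPM) and the AMH library (41.8 CPM) stand above the doxorubicin (14.0 CPM) and control (8.65 CPM) libraries.

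Among the INK4 genes, Cdkn2c, the p18 gene, was the best measured. It was 44.1, 47.0, 58.1 and 58.8 CPM in theca-like cells, 39.8, 44.8, 40.2 and 35.6 CPM in stroma-like cells and 8.36, 9.39, 10.9 and 9.81 CPM in granulosa-like cells. The theca-like cells of the libraries with AMH came from another cluster, as given above, and the part of that shift was not tested. Among clusters Enpep/Ryr2 was at the top in the control library, with 76.4, 87.9, 67.3 and 54.6 CPM over the 4 libraries. Doxorubicin to control had a median of 0.09 over the 17 clusters.

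Cdkn2d, the p19 gene of the INK4 family, was highest in lymphocyte-like cells, with 67.2, 55.0, 51.2 and 42.0 CPM in T or NK lymphocyte-like cells from 9 to 34 UMIs. Granulosa-like cells had 11.3, 12.7, 16.6 and 13.3 CPM and stroma-like cells 18.3, 18.3, 20.6 and 15.3 CPM. In blood endothelial-like cells it was 37.4, 36.7, 33.5 and 16.1 CPM, and the AMH library was the low one, with an interval of -1.44 to -0.56 for the log2 ratio to control. The doxorubicin and AMH library did not share that low value.

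Cdkn2a and Cdkn2b were near the limit of detection. Cdkn2a had 2.66, 3.20, 3.41 and 2.98 CPM in stroma-like cells, with 6.05, 6.74, 7.61 and 6.89 CPM in Enpep/Lamc3, and these intervals overlapped across the libraries. In granulosa-like cells its UMIs sat in very few cells: 37 UMIs in 4 of 1402 cells in the control, 11 in 8 of 1546 in the doxorubicin, 3 in 3 of 1715 in the doxorubicin and AMH and 54 in 8 of 1879 in the AMH library. A single cell held 17 of the control UMIs and another 19 of the AMH UMIs, both in the low-UMI cluster Gm26917/Ube2c, so a class mean of Cdkn2a describes a handful of cells. Cdkn2b was 3.01, 3.72, 2.79 and 2.90 CPM in stroma-like cells and reached 28.7 CPM in the control, 18.8 CPM in the doxorubicin and AMH and 27.5 CPM in the AMH library in oviduct epithelial-like cells, of which the doxorubicin library held 1. No library stood apart in either gene in stroma-like cells.

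**Figure D5:**
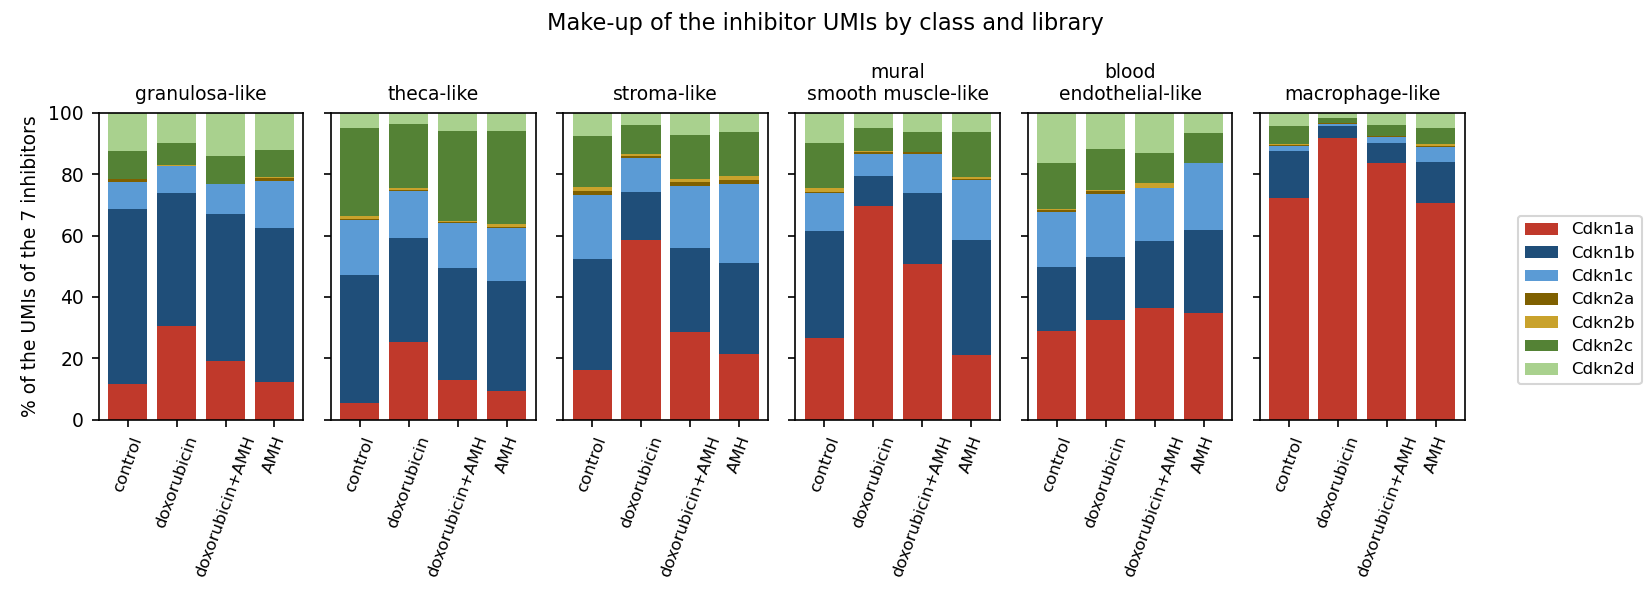
Share (%) of each of the 7 genes in the UMIs of all 7, by library, in the 6 classes that had 50 cells or more in all libraries. The Cdkn1a segment of the doxorubicin bar grows to 58.7% in stroma-like and 69.6% in mural smooth muscle-like cells and differs little in blood endothelial-like cells (28.9% to 36.3%).

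Within the inhibitor UMIs, a scale that does not depend on library size, Cdkn1b led in the stroma-like and mural smooth muscle-like cells of the control library and Cdkn1a in those of the doxorubicin library. In stroma-like cells Cdkn1a held 16.2%, 58.7%, 28.6% and 21.4% of the UMIs of the 7 genes and Cdkn1b 36.2%, 15.7%, 27.4% and 29.6%. In mural smooth muscle-like cells Cdkn1a held 26.5%, 69.6%, 50.7% and 21.1%, with the same unequal mix of 2 clusters behind these shares. In granulosa-like cells it held 11.5%, 30.4%, 19.2% and 12.1%, and Cdkn1b stayed ahead with 57.0%, 43.7%, 47.8% and 50.4%. Macrophage-like cells were dominated by Cdkn1a in every library, with 72.3%, 91.8%, 83.5% and 70.5%. The 3′ counts of different genes can be captured with different efficiency, so these are shares of UMIs and not of protein.

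The inhibitors were then set against the cell cycle, with a cell called cycling if it held at least 5 UMIs of S and G2/M phase genes after thinning. Granulosa-like cells were cycling in 61.0%, 64.0%, 69.4% and 68.1%, and with the minimum at 10 UMIs in 36.5%, 32.1%, 43.7% and 38.1%, so the place of the doxorubicin library against the control turned with the minimum. At 5 UMIs, 40.4% of blood endothelial-like, 29.4% of macrophage-like and 26.4% of mural smooth muscle-like control cells were also called cycling. The call is thus a loose one, and its shares are not a measured fraction of dividing cells. In the doxorubicin library 6.30% (4.82 to 8.07) of cycling and 8.49% (6.24 to 11.2) of other granulosa-like cells held a Cdkn1a UMI, with overlapping intervals. In the AMH library the shares were 1.53% (0.921 to 2.37) and 3.77% (2.38 to 5.66), which barely part, and with cycling set at 10 UMIs they overlapped, at 1.43% (0.690 to 2.62) and 2.74% (1.87 to 3.87). Cdkn2c was seen in 2.03% (1.19 to 3.23) of cycling against 0.187% (0.00473 to 1.04) of other granulosa-like cells in the control library and in 2.50% (1.59 to 3.73) against 0.193% (0.00489 to 1.07) in the doxorubicin library. The intervals overlapped in the libraries with AMH, at 1.93% (1.22 to 2.91) against 0.996% (0.324 to 2.31) with doxorubicin and 1.69% (1.05 to 2.57) against 0.686% (0.187 to 1.75) without. With cycling set at 10 UMIs those of the control overlapped too, at 2.40% (1.24 to 4.15) and 0.688% (0.253 to 1.49), while the other 3 libraries had separate intervals. Cdkn2d was seen in 2.27% against 0.561%, 2.72% against 1.35%, 3.96% against 2.19% and 2.57% against 1.37%, with intervals that overlapped in all 4 libraries. At 10 UMIs they were separate in the control, at 3.39% (1.99 to 5.38) against 0.573% (0.186 to 1.33), and in the doxorubicin library, at 4.56% (2.84 to 6.88) against 1.13% (0.563 to 2.01), and overlapped in the libraries with AMH. In stroma-like cells of the doxorubicin library Cdkn1a was seen in 21.2% (18.3 to 24.4) of cycling against 16.8% (14.9 to 18.8) of other cells, which overlap. With the minimum at 10 UMIs the shares were 28.4% (21.4 to 36.2) against 17.5% (15.9 to 19.2), which do not. The stroma-like class pools clusters of unlike Cdkn1a level, and the part of that mix was not tested. In the other 3 libraries the stroma-like intervals for Cdkn1a overlapped at both settings. Cdkn1c in stroma-like cells was seen in 3.17% of cycling against 12.5% of other cells, 5.16% against 11.4%, 4.00% against 14.8% and 5.98% against 15.7% at 10 UMIs, with separate intervals in each library, while at 5 UMIs they overlapped in all 4. The erythroid-like background for these shares rests on 31 to 60 cells per library, of which none held a Cdkn1a UMI outside the doxorubicin library, so it is known only loosely, and cells with more RNA of cycle genes may differ in other ways.

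The kinases and cyclins that the inhibitors act on were split between higher and lower. Of 34 listed CDK, cyclin and RB pathway genes, 24 reached 20 CPM in granulosa-like cells, and their doxorubicin to control ratio was above 0 in 12 and below in 12, with none past 2-fold and a median of -0.00, beside -0.02 over all genes. At the ends were Tfdp1 (0.17), Ccnd2 and Cks1b (0.10 each), and Tfdp2 (-0.31), Ccnd3 (-0.23) and Cdk6 (-0.20). In stroma-like cells 11 of 19 were above 0 with a median of 0.01, beside 44.1% of all genes above 0 and a median of -0.01, and the ends were Cdk1 (0.26), the mitotic kinase, and Rbl2 and Tfdp2 (-0.10 each). In macrophage-like cells 6 of 17 were above 0 with a median of -0.04, from Ccnb2 (-0.82) to Ccnd1 (0.45), beside 0.02 over all genes.

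Among 13 listed regulators of the inhibitors, Mdm2, which marks p53 for breakdown and is itself a p53 target, stood highest for doxorubicin to control in all 3 classes, with log2 ratios of 0.25 in granulosa-like, 1.08 in stroma-like and 1.19 in macrophage-like cells. Trp53, the p53 gene, was at 0.03 in granulosa-like and -0.08 in stroma-like cells. Foxo1, a regulator of Cdkn1b, was at -0.30 in granulosa-like and -0.72 in macrophage-like cells. Of 20 other p53 targets, taken whatever their level, 18 were above 0 in Dpt/Clec3b for doxorubicin to control and 16 past 2-fold, with a median of 2.29, beside 42.0% of genes above 0, 2.07% past 2-fold and a median of -0.06. For doxorubicin and AMH to doxorubicin 18 were below 0, with a median of -2.24 beside 0.04. In granulosa-like cells 18 of the 20 were above 0 for doxorubicin to control and 2 past 2-fold, with a median of 0.34, beside 45.4% of genes above 0 and 0.0456% past 2-fold. The figures for all genes take those that averaged 20 CPM or more, so they come from an unlike set and the targets' counts are given as a description. Ccng1, an early p53 target, was at 0.87 in granulosa-like cells.

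The stress list of genes known to respond to tissue dissociation was measured beside these values, with 15 of 17 above 0 for doxorubicin to control in granulosa-like cells (median 0.21, beside 45.4% of all genes above 0 and a median of -0.02), 7 of 18 in stroma-like cells (median -0.02, beside 44.1% and -0.01) and 3 of 18 in macrophage-like cells (median -0.34, beside 51.8% and 0.02). Its summed level was 7386 to 8163 CPM in granulosa-like and 15572 to 16582 CPM in stroma-like cells over the 4 libraries. Its part in the Cdkn1a ratios was not tested.

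Across the 24 points made by 6 classes in 4 libraries, the genes most like Cdkn1a among 9688 were Lactb (Pearson r 0.92), Fam107b (0.89), Tmem219 (0.88), Rasa3 (0.87) and Tnfrsf21 (0.87), as a description on log2(CPM + 5). The points share libraries and classes, so they are not independent. Cdkn1a itself had r of -0.33 with Cdkn1b, -0.08 with Cdkn1c, 0.02 with Cdkn2c and 0.45 with Cdkn2d. The highest pair among the members was Cdkn1c with Cdkn2c (0.72). Cdkn1b was most like Thra and Pard3b (0.87 each), Cdkn1c most like Gm10125 and Plscr4 (0.94 each), Cdkn2c most like Laptm4a (0.94) and Tmem159 (0.92), and Cdkn2d most like Nelfb and Pgm2 (0.89 each).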

How the data were processed

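Ovary cells were made into libraries with the Chromium 3′ v3.1 kit and sequenced on a NovaSeq, per the labels' protocols. The authors deposited raw UMI counts of every gene in every cell. Per the file headers, these are Cell Ranger 7.0.0 output. R 4.2.0, Seurat 4.1.0 and the build mm10 stand in the submitters' processing notes, and the annotation and the counting of introns are not given in the sources used here. A cell was kept if it had 1000 UMIs or more and no more than 20% of them mitochondrial, and the highest Scrublet scores were removed as doublets (0.8% per 1000 cells, 408 to 719 per library, since the automatic threshold marked 0 or 1). Cells were clustered in scanpy 1.11.5 with Leiden (leidenalg 0.10.2) on 2000 variable genes that left out the 7 inhibitors and the response lists, with 30 components. A cluster was named where at least 3 markers and 60% of a list stood at least 1 log2 above the median cluster in at least 10% of cells. It stayed unnamed where another class's markers led its top 10 genes, or where its UMIs were under 33.3% of the median with none of its own markers among those genes. These thresholds were set after values were seen, and a class here may differ from the study's. Counts were summed per class and library. Log2 ratios add 5 CPM, gene lists take genes that average 20 CPM or more, and intervals are exact Poisson, Clopper-Pearson or conditional binomial (scipy 1.17.1). With 1 library per group no test was run. The ratios were checked on simulated data. Promoter sequences are from RefSeq and gene positions from GENCODE. Named genes are the 7 inhibitors, the 3 highest and 3 lowest of each pathway list, and the genes most like a member by Pearson r (5 for Cdkn1a, 2 for others). The members and lists were chosen with earlier results of these data known.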

Additional observations from a re-analysis of the deposited data

Results flagged for a closer look

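A gene was singled out where 2 cell classes lay on opposite sides of 0 for the same pair of libraries, with intervals, for counting error only, that excluded 0 or came within 0.0094 of doing so (Cdkn1b in macrophage-like cells, doxorubicin to control). None of these differences between classes was tested, since each group is 1 library. Cdkn1a, AMH to control, was 0.75 in theca-like and -0.60 in macrophage-like cells on the log2 scale. The theca-like cells of the control came mostly from the Cyp17a1/Cyp11a1 cluster and those of the AMH library from Prss35/Pde10a, and within Cyp17a1/Cyp11a1 the ratio of Cdkn1a was 0.12. For Cdkn1b, blood endothelial-like cells gave 0.46 for AMH to control and 0.38 for doxorubicin to control, whereas macrophage-like cells gave -0.67 and -0.56. Cdkn1c, doxorubicin and AMH to doxorubicin, was 0.14 in stroma-like and -0.49 in blood endothelial-like cells. Cdkn2c was 0.38 in theca-like and -0.42 in blood endothelial-like cells for AMH to control, and 0.28 in theca-like and -0.78 in mural smooth muscle-like cells for doxorubicin and AMH to doxorubicin, where the theca-like cells again came from different clusters and the mural smooth muscle-like cells were not a like mix either, with 19 Des/Cnn1 and 80 Rgs5/Ndufa4l2 cells in the doxorubicin library and 55 and 65 in the doxorubicin and AMH library.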

How the results depend on the processing

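The 9 Cdkn1a ratios in granulosa-like, stroma-like and macrophage-like cells kept their direction under every alternative run, and 20 values lay outside the counting interval of the value reported. The number of clusters with the highest Cdkn1a in the doxorubicin library, 16 of 17, was 14 to 17 of 17 under 4 settings chosen after seeing the data and 17 of 18 with doublets kept, chosen likewise. The full order of the libraries, in 15 of 17, held in 13 or 14 of 17 and in 14 of 18. For granulosa-like cells, doxorubicin to control was 1.68 with cells from 500 UMIs, 1.67 with doublets kept, 1.82 with a pseudocount of 1 CPM, 1.37 with a gate on each cell's own markers and 1.35 with the Kcnq5/Ghr cluster counted in. Doxorubicin and AMH to AMH was 0.72 with a pseudocount of 1 CPM, 0.77 with cells weighted equally, 0.46 with the gate and 0.43 with Kcnq5/Ghr, and doxorubicin and AMH to doxorubicin was -0.58 with median-of-ratios scaling. For stroma-like cells, doxorubicin to control was 2.81 with a pseudocount of 1 CPM, 2.27 with equal weights and 1.93 without Dpt/Clec3b. Doxorubicin and AMH to AMH was 0.27 with equal weights, 0.42 with each library clustered alone and 0.81 without Dpt/Clec3b, and doxorubicin and AMH to doxorubicin was -1.58 with equal weights and -0.76 without Dpt/Clec3b. For macrophage-like cells equal weights gave 1.37 for doxorubicin to control and -0.62 for doxorubicin and AMH to doxorubicin. In 7 cases the sign changed, where a ratio was counted only if the interval of its reported value did not span both signs. Sign changes of other ratios were not counted. Cdkn1b in granulosa-like cells, AMH to control, was -0.0099 with the gate and -0.0024 with Kcnq5/Ghr. With equal weights, Cdkn2c in granulosa-like cells was -0.24 for doxorubicin and AMH to doxorubicin and Cdkn2d was -0.14 for AMH to control. Cdkn1a in mural smooth muscle-like cells, AMH to control, was 0.079 with the gate against -0.43 with clusters. Without the filter of 20 CPM, the median of the CDK, cyclin and RB list was 0.0081 in granulosa-like cells for doxorubicin to control and 0.0047 in macrophage-like cells for doxorubicin and AMH to AMH. The causes of these shifts were not tested. The Kcnq5/Ghr and Dpt/Clec3b settings were chosen after seeing the data. No paired analysis was possible because each group is 1 library, and for the same reason no library could be left out. Cdkn2a and Cdkn2b had the fewest UMIs of the 7 inhibitors, and the effect of depth was not compared between members.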
